A study of Mus musculus with 5 samples.

Results

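Cwc22 is a mouse gene on chromosome 2 (77881159 to 77946356, GRCm38, 65.2 kb, gene ID 80744), read from the higher towards the lower coordinate, and the peaks described here are the HSF1 ChIP-seq peaks with the summit inside it or within 200 kb of either end. HSF1 is the transcription factor of the heat shock response. These were 12 of 3316 peaks in the list of untreated neurons (the control list) and 8 of 3646 in the list of NMDA-treated neurons (the NMDA list). The locus was chosen from these lists for its number of peaks, their width, their low fold enrichment beside a high −log10 p, and their sharing between lists. Those values are therefore given as a description, without a test.

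The cells were primary cortical neurons from wild-type Swiss-Webster mice, an outbred stock, taken at embryonic day 16 and used on day 13 in culture. Control neurons had no treatment (2 ChIP libraries). Treated neurons had 50 µM NMDA, an agonist of glutamate receptors, for 10 min and then 20 min in drug-free medium (2 ChIP libraries). The single input library, sheared chromatin without immunoprecipitation, came from untreated neurons. Each list combines both ChIP libraries of its condition, which leaves every value without an error across replicates, and nothing below tests the conditions. Peak lists hold no marker expression, so the labelled cell type was not checked. Sequencing depth is unknown.

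CWC22 is a protein of the spliceosome. It brings the helicase EIF4A3 to spliced RNA, where the exon junction complex forms around it and later guides export, translation and decay of the messenger RNA. The gene lies in a segment of chromosome 2 that is known to vary in copy number between mice, with many extra copies in some. The reference genome of C57BL/6J mice holds the segment at Cwc22, so that reads from extra copies elsewhere would be placed there. How many copies the neurons of this study carried was not measured.

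The start site of Cwc22 carried the peak of highest fold and −log10 p of the locus in both lists. Only 10 annotated start windows, each reaching from 250 bases before to 50 after a RefSeq start (GRCm38.p6), held a summit of both lists, and Cwc22 was 1 of them. The control summit lay 47 bp downstream of the annotated start and the NMDA summit 18 bp downstream. The first sequence shows the 250 bases before the start (chr2:77946357-77946606, minus strand), and the second the 30 bases from the NMDA summit to the control summit (chr2:77946309-77946338, minus strand). Capitals mark GAA and TTC, the core of the unit that HSF1 recognises. The third sequence, printed as a contrast, comes from the start of the chaperonin gene Hspe1 (chr1:55088039-55088091, plus strand), which also had a summit of both lists, and capitals there mark an unbroken array of such units.
Cwc22 before the start: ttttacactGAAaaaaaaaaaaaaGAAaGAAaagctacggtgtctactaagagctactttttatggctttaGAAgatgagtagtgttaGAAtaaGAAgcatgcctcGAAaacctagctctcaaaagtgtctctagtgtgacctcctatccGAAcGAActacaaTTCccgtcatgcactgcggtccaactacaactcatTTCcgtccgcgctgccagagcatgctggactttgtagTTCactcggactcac
Cwc22 between summits: ctttgtaagGAAtgacagtgttactagctg
Hspe1 before the start: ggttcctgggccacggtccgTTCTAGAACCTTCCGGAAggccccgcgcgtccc

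The Cwc22 stretch before the start held 12 single units but none in the spacing of a heat shock element. The motifs searched were GAANNTTC and TTCNNGAA, which read the same on both strands, and the 3-unit motifs TTCNNGAANNTTC and GAANNTTCNNGAA, which are each other's reverse complement and contain the shorter ones. None of them occurred in the 300 bases of the Cwc22 start window. Among 32851 start windows, 7.86% held GAANNTTC, 8.52% held TTCNNGAA, and 0.603% held a 3-unit motif. Of the windows with a summit, 6 of 123 in the control list (4.88%) and 13 of 107 in the NMDA list (12.1%) held a 3-unit motif, and of the 10 windows with summits of both lists 3 did, those of Hspd1, Hspe1 and Hsph1. That these letters are not in this window does not settle whether HSF1 binds there, which was not tested.

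The start-site peak of the control list (77946170 to 77946784, 615 bp) had 2.68-fold enrichment and a −log10 p of 24.5, the authors' values. It ranked 16th of 3316 peaks by −log10 p, although its fold was close to the median of the list, 2.67. The corresponding NMDA peak (77946211 to 77946791, 581 bp) had 2.28-fold enrichment and a −log10 p of 14.3, ranking 178th of 3646, with a fold below the list's median of 2.69. The 2 peaks overlapped by 574 bp and their summits were 29 bp apart. The peak is thus wide, has a high −log10 p in both lists, and has a middling or low fold in each.

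Inside the gene body the control list had 8 further peaks. A group of 4 lay near the far end of the gene, with summits 50698 to 58876 bp downstream of the start. The strongest of them (77887394 to 77887611) had 2.12-fold enrichment and a −log10 p of 13.1, and the one beside it (77889650 to 77890094) had 1.76-fold and 7.24. The other 2 of that group were the weakest of the locus, with 1.38-fold and 1.43-fold enrichment and −log10 p of 2.89 and 3.41. In the middle of the gene lay a 1.68-fold peak (77910780 to 77911080) and a 1.58-fold peak of 795 bp (77917387 to 77918181), the widest of the locus. A pair 20272 and 19377 bp downstream of the start had 1.77-fold and 1.99-fold enrichment, with −log10 p of 8.25 and 10.98. Whether any of these peaks lies in an exon or an intron was not analysed here.

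The NMDA list had 3 peaks in the gene body besides the one at the start. These lay at 77908040 to 77908560 (1.64-fold), 77909687 to 77909914 (1.81-fold) and 77923658 to 77924017 (1.81-fold), with −log10 p of 6.65, 9.12 and 7.41. All 3 were in the middle of the gene, 22484 to 37970 bp downstream of the start, and none overlapped a control peak. The nearest control summit was 1135 to 2544 bp away. The far end of the gene, where 4 control peaks lay, held no NMDA peak, and the nearest NMDA summit to any of those 4 was 12728 bp away. Of those 4 control peaks, the ones at 77891168 and 77895448 did not have a q below 0.05 in the authors' deposited table.

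Above the gene, on the side of its start, peaks continued for 76.2 kb (control) and 80.3 kb (NMDA). The control list had 3 there, at 77963292 to 77963700 (1.63-fold), 77985808 to 77986254 (1.73-fold) and 78022193 to 78022631 (1.59-fold). The NMDA list had 4, at 77961253 to 77961623 (1.98-fold), 77963449 to 77963701 (1.83-fold), 78022192 to 78022626 (1.48-fold) and 78026479 to 78026971 (1.82-fold). The peaks at 77963292 (control) and 77963449 (NMDA) begin just above Gm13726, an annotated pseudogene (77962220 to 77963083) that held no summit itself. Of the annotated genes above Cwc22, the lncRNA gene Gm52519 also held none, and the lncRNA gene 4930440I19Rik held 1 summit in each list, both farther than 200 kb from Cwc22. The lower flank held no peak in either list, although Zfp385b, a zinc finger protein gene, and the lncRNA gene Gm35431 reach into it.

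Sharing between lists was limited to 3 sites. An overlap of at least 1 bp was found for 3 of the 12 control peaks (25%), where the whole control list had 2.90%, and for 3 of the 8 NMDA peaks (37.5%), where the whole NMDA list had 2.61%. The shared sites were the start site, a site above the pseudogene Gm13726 and a far site at 78022193 to 78022631 (control coordinates). Their summits were 29, 171 and 25 bp apart. At the Gm13726 site the enrichment was 1.63-fold (control) and 1.83-fold (NMDA), and at the far site it was 1.59-fold and 1.48-fold. The fold was therefore higher in the control list at 2 shared sites and in the NMDA list at 1, on scales that are set separately in each list. In the authors' deposited table a q below 0.05 was listed for 10 of the 12 control peaks (68.9% of the whole list) and for 7 of the 8 NMDA peaks (76.3% of the whole list). By the same q of the authors' deposited table, the control peaks that did not pass were those at 77891168 and 77895448. The NMDA peak that did not pass by the authors' q was the one at the far site, and 2 of the 3 shared sites passed in both lists.

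Most peaks of the locus had a low fold for their −log10 p. The control peaks ran from 1.38-fold to 2.68-fold with a median of 1.70, and the NMDA peaks from 1.48-fold to 2.28-fold with a median of 1.82. Of the control peaks 11 of 12, and of the NMDA peaks 8 of 8, were below the median fold of their own list, and 10 of 12 and 7 of 8 were at or below its 5th percentile (2.09 and 2.16). Yet the median −log10 p of the locus was 6.38 (control) and 7.03 (NMDA), above the list medians of 5.76 and 6.09. Peaks elsewhere with a fold at or below the same percentile had a median −log10 p of 3.37 and 3.40. Peaks that were at or below the 5th percentile of fold and at or above the median −log10 p numbered 6 of 12 at Cwc22 against 0.513% of the control list, and 6 of 8 against 0.302% of the NMDA list. The start-site peak was not among them in either list, since its fold was above that percentile, and 4 control peaks and 1 NMDA peak were below the median −log10 p. Those 6 and 6 were a large part of the 17 and 11 such peaks in the lists, and no other nuclear protein-coding gene held one. Such peaks on the mitochondrial genome had no gene assigned here. The width of the peaks had a median of 424 bp (control) and 403 bp (NMDA), with list medians of 316 and 303 bp.

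**Figure D1:**
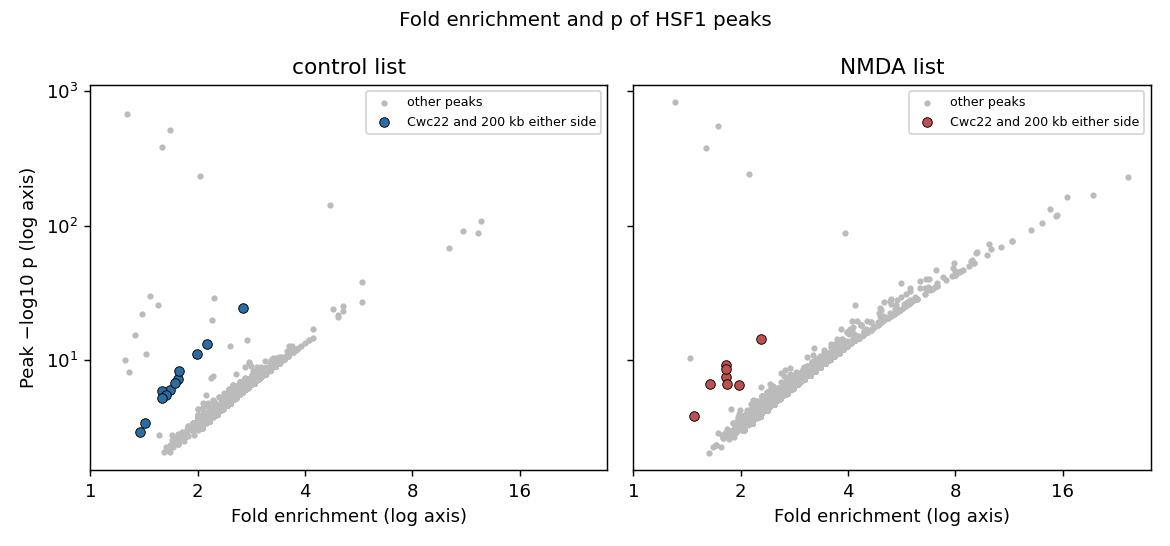
Fold enrichment (x, log axis) against peak −log10 p (y, log axis) for every peak of the control list (left) and the NMDA list (right), with each point 1 peak and the peaks of Cwc22 and 200 kb either side in colour. The 12 control and 8 NMDA peaks of the locus stand above the main band of each list, at folds of 1.38 to 2.68 and 1.48 to 2.28.

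The 2 deposited values of a peak were then taken apart into the ChIP signal and the background behind it. In MACS2, which the submitters name, the fold is (pileup + 1)/(background + 1), where the pileup is the number of ChIP fragments over the summit, and p is the upper Poisson tail of that pileup given the background. A whole number of fragments satisfied both values to within 0.001 in −log10 p for 3312 of 3316 control peaks (99.9%) and 3642 of 3646 NMDA peaks (99.9%). The lowest background of a list, here called the genome level, was 8.74 fragments (control) and 8.30 fragments (NMDA). It was shared by 61.0% and 67.7% of the peaks. The values below are thus derived from the deposited ones under that formula and were not counted from reads. The locus was chosen partly for a low fold beside a high −log10 p, and under the formula that pair gives a high background. A high background at the locus therefore restates the choice and is no separate finding.

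Both the ChIP pileup and the background were high at Cwc22. Because the study has a single input library, the backgrounds of the control and NMDA list are not independent measurements. At the start site the pileup was 143 fragments in the control list (exact Poisson 95% interval 120.5 to 168.5, counting error only) over a background of 52.7, and 109 fragments in the NMDA list (89.5 to 131.5) over a background of 47.3. Set over their background, the pileups were 2.71 (2.29 to 3.20) and 2.31 (1.89 to 2.78) in the control and NMDA list. These intervals leave out the error of the background, and the lists were not compared. Across the locus the pileup ran from 92 to 143 fragments (control) and from 61 to 119 (NMDA), where the list medians were 26 and 25. The background ran from 52.7 to 71.6 and from 30.3 to 69.5 fragments. This was 6.03 to 8.19 times the genome level for control peaks, with a median of 6.46, and 3.65 to 8.38 times for NMDA peaks, with a median of 6.61. The lowest of these values belonged to the NMDA peak at 77961253, beside the pseudogene, with a pileup of 61.

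The pileup over background was above 1 at every peak of the locus by its counting interval. The nearest to 1 was the weak control peak at 77891168, near the far end of the gene, at 1.38 (1.11 to 1.69). A peak is listed because it passes such a comparison, so this describes the list. The number of fragments above background was 25.4 to 90.3 (control) and 29.3 to 61.7 (NMDA), with list medians of 16.3 and 16.7. In number of fragments the excess at all 12 and all 8 peaks was thus above the list median, while as a ratio to background it was mostly among the lowest. Over a high background a peak needs more fragments above it to be listed, so the excess too describes the list.

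Backgrounds just above the genome level moved in equal steps, of 0.994 (control) and 0.892 (NMDA), as they would where each input fragment is scaled by a constant. Of the peaks with a background above the genome level and under 3 times it, 65.8% and 64.0% lay within 0.002 of a whole number of steps. The step was chosen to make this share largest on these same peaks, so the share describes the fit and tests nothing. At the Cwc22 start site the background came to 53 steps in both lists, which rest on the same single input library. It came to 57 (control) and 48 (NMDA) steps at the Gm13726 site and to 61 and 67 at the far site, where the summits are 171 and 25 bp apart. In all, 11 of 12 control and 7 of 8 NMDA backgrounds at the locus were whole numbers of steps to within 0.01.

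**Figure D2:**
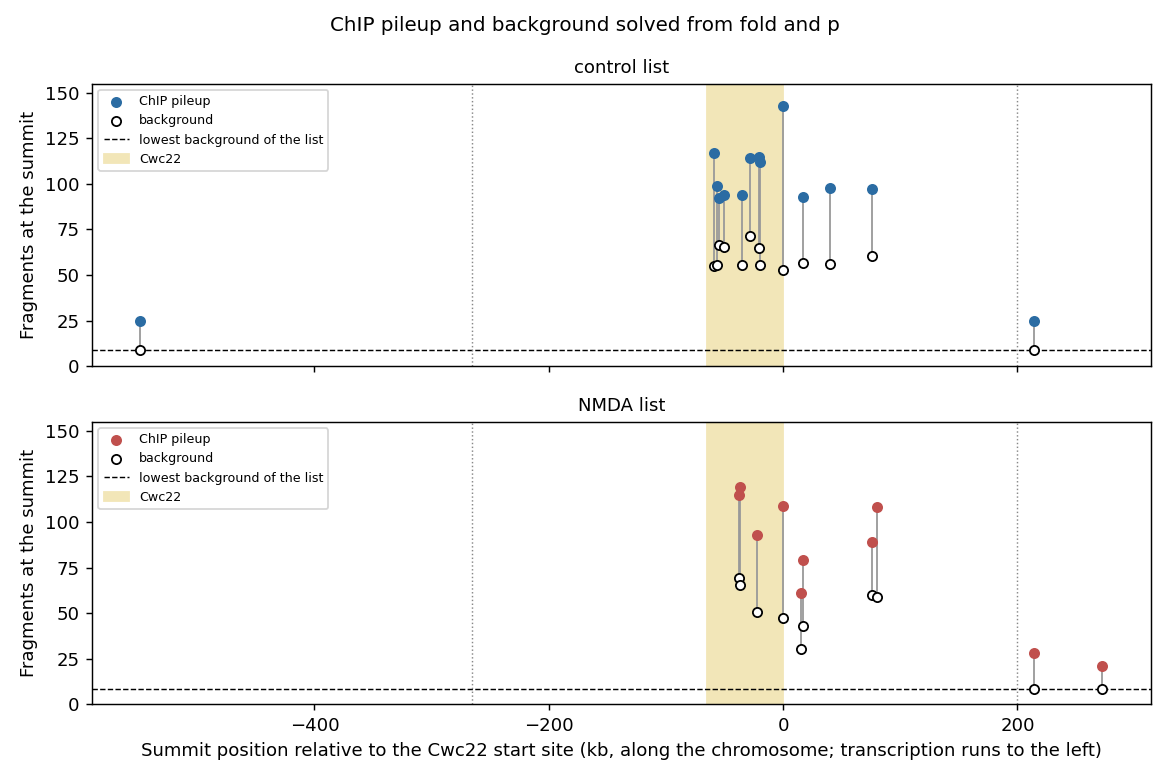
ChIP pileup (filled) and background (open) in fragments at each summit, by distance in kb from the Cwc22 start site, for the control list (top) and the NMDA list (bottom), with the gene shaded, the limits of 200 kb dotted and the genome level dashed. Backgrounds of 52.7 to 71.6 (control) and 30.3 to 69.5 fragments (NMDA) are seen at the peaks of the locus, and the backgrounds of the peaks outside the limits lie at or near the dashed line.

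The high background had an end on the upper side. The farthest peak within the 200 kb was the NMDA peak at 78026479, 80.3 kb above the gene, with 7.09 times the genome level. The next peak, found in both lists at 78160009 to 78160310 (control) and 78159999 to 78160321 (NMDA), lay 213.8 kb above the gene and had 1.00 and 1.01 times the genome level, with pileups of 25 and 28 fragments. Its fold was higher than that at most peaks of the locus, at 2.67 and 3.10. On the lower side the nearest control peak was 483 kb away (77397609 to 77398015) with a background of 8.95 fragments, and the nearest NMDA peak was 737 kb away with 8.30. The peaks of the locus spanned 135 kb (control) and 119 kb (NMDA). Between peaks the files give no values, so the edges of the high background are known only to within these gaps.

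Few other peaks had such a background. Because the background comes from the fold and −log10 p used to choose the locus, the counts here are a description. More than 3 times the genome level was found for all 12 control peaks of the locus, against 0.725% of the solved control list, and for all 8 NMDA peaks, against 0.275% of the solved NMDA list. Cwc22 was the only protein-coding gene with such a peak inside it in either list, among the peaks that could be solved. The next was 2.96 times for a control peak inside 1600014C10Rik and 2.04 times for an NMDA peak inside Elovl6. Outside the locus there were 12 such control peaks and 2 such NMDA peaks. Of the control ones 6 lay in a stretch of chromosome 17 (39843104 to 39848746) that holds the ribosomal RNA pseudogene Rn18s-rs5, at 49.0 to 80.4 times. A pair on chromosome 9 was found in both lists. Of these, the peak at 3002442 to 3002699 in the control list had 1.43-fold enrichment over 31.1 times the genome level, and the one at 3019022 to 3019490 had 4.70-fold over 10.2 times. The 4 unsolved peaks of each list, 2 on the mitochondrial genome and 1 each on chromosomes 1 and 2, had the highest −log10 p of their list among peaks of low fold and high −log10 p. They included the 1.27-fold control peak at chromosome 2, 98666505 to 98667515, with a −log10 p of 676.

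**Figure D3:**
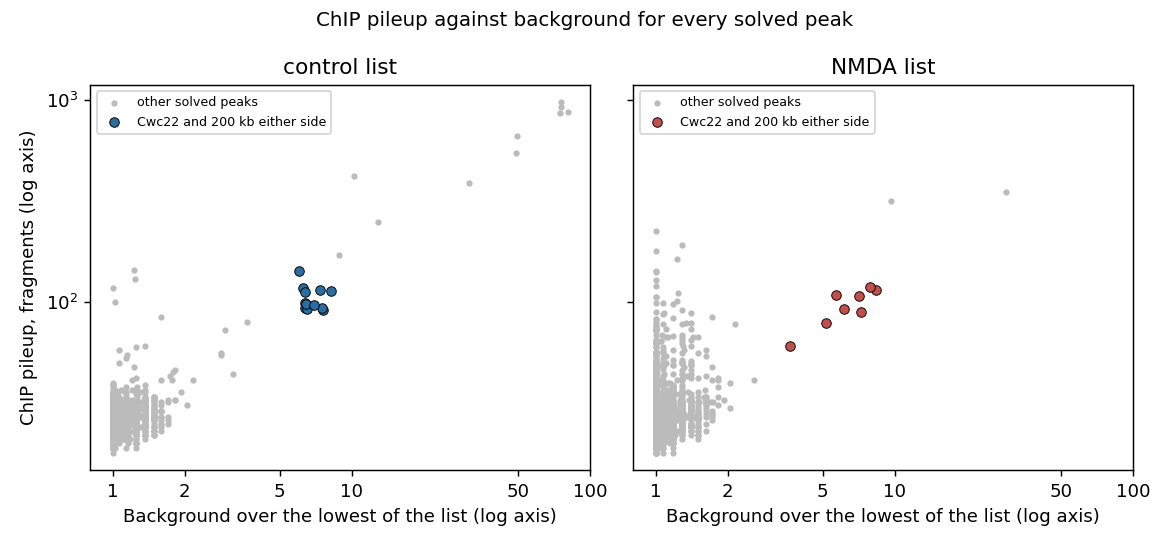
ChIP pileup in fragments (y, log axis) against background as a multiple of the genome level (x, log axis), each point 1 solved peak of the control list (left) or NMDA list (right), with the peaks of Cwc22 and 200 kb either side in colour. The locus lies at 6.03 to 8.19 times (control) and 3.65 to 8.38 times (NMDA), apart from the mass of peaks near 1.

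The other start sites with summits of both lists, of which Hspd1 and Hspe1 share a peak, as do Tsacc and Cct3, had no raised background. At Hspd1, Hspe1, Hsph1, Tsacc, Cct3, Rsrp1, Atraid, Ift46 and Trim9 it was 1 to 1.01 times the genome level for control peaks and 1 for NMDA peaks. At Hspe1 the pileup was 40 control fragments (4.21-fold) and 129 NMDA fragments (13.98-fold). The 109 NMDA fragments at the Cwc22 start were thus near the 129 at Hspe1 in number, but stood over 5.70 times the genome level. In the control list the 143 fragments at Cwc22 were the most of the 10 start sites, the other 9 having at most 40.

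As a further description, pileup and background of each peak were divided by the ratio of its background to the genome level, and p was computed again. For this the divided pileup was cut down to a whole number, and other rounding was not tried. The setting was chosen after the values had been seen, and it lowers −log10 p by construction, because the ratio is kept while the number of fragments falls. At the start site −log10 p then came to 4.81 (control) and 3.40 (NMDA). The values ran from 0.975 to 4.81 (control) and from 1.10 to 3.40 (NMDA). For scale, the lowest −log10 p deposited was 2.06 (control) and 2.03 (NMDA), and 3 of 12 control and 2 of 8 NMDA values were above it: the start site in both lists, the control peaks at 77887394 and 77926536, and the NMDA peak at 77961253. A region present in more copies, one whose chromatin gives more fragments and one that collects reads from elsewhere in the genome cannot be told apart in these lists, and the share of each in the background was not tested.

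By number of peaks the gene stood high in both lists, more so in the control list. With 9 summits inside it (13.8 per 100 kb), Cwc22 had more control peaks than every protein-coding gene except 1, and ranked 2nd in density among the 67 genes with at least 3 peaks. With 4 NMDA summits (6.14 per 100 kb) it had fewer than 19 genes, as many as 15 others, and ranked 3rd in density among 80 genes.

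Genes that work with CWC22 were looked at for comparison. Of 39 genes of the exon junction complex and the spliceosome, Cwc22 included, 5 had a control peak inside the gene or within 1000 bp (12.8%, against 7.71% of all protein-coding genes) and 3 had an NMDA peak (7.69%, against 7.28%). Without Cwc22 these were 4 and 2 of 38. The control genes were Upf2, a factor of nonsense-mediated decay (2.81-fold), the splicing factor gene Cdc40 (2.51-fold), Sap18, part of a complex that joins the exon junction complex (3.02-fold), and Cwc27, a spliceosomal cyclophilin gene, with 2 peaks (2.51-fold and 2.77-fold). The NMDA genes were Syf2 (3.44-fold) and Cdc40 (2.90-fold), whose control and NMDA peaks do not overlap. All these peaks had a background of 1 to 1.25 times the genome level, unlike those of Cwc22.

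Other genes known to vary in copy number between mice were also looked at. In each list 1 of 7 had a peak (14.3%), against 7.71% (control) and 7.28% (NMDA) of all protein-coding genes. So few genes give no share that could be read as high or low. Of 7 such genes (Sfi1, Glo1, Ide, Fgfbp3, Itln1, Sp100 and Amy1), Sfi1 had 1 control peak (2.30-fold, 1.48 times the genome level) and Ide had 1 NMDA peak (3.03-fold, 1.07 times). The remaining 5 had no peak inside the gene or within 1000 bp in either list, so the lists hold no background value for them. The copy number of these 7 genes in the neurons was not measured.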

How the data were processed

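The data were the 2 deposited peak lists, 1 per condition, each combining 2 ChIP libraries. Per the submitters' processing notes, the tools were MACS2, BWA, SAMtools, Trimmomatic and FastQC, of unstated versions and roles, and the build was GRCm38.p6 (mm10). For the merging of replicates, the peak threshold and the handling of duplicate or multiply placed reads, the sources used here give no account. The deposited values of a peak are a display score, a fold enrichment (a ratio over background), −log10 p, −log10 q and the summit offset. Each list was assigned to a condition by its name.

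Peaks belonged to the locus when the summit lay in Cwc22 or within 200 kb. Pileup and background were solved per peak from fold and −log10 p over whole pileups up to 19999 fragments, with Python 3.11.15 and scipy 1.17.1. Of 400 peaks simulated under the same formula, 400 were recovered, which checks the solving and not whether the deposited values follow the formula. The simulated backgrounds stayed below the highest of the lists. All 39 and 7 genes of the 2 lists matched RefSeq GRCm38.p6, which gave gene spans and start windows. Genome sequence beyond those windows and exon positions were not used here. Genes and peaks were named by rule: all peaks of the locus, annotated genes reaching into it, listed genes with a peak, and up to 5 peaks of low fold and high −log10 p per list elsewhere. The start sites with summits of both lists and the genes of next highest background were named after their values were seen. The locus and gene lists were chosen with earlier results of these data known. The alternatives tried were other windows, overlap rules and thresholds.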

Additional observations from a re-analysis of the deposited data

How the results depend on the processing

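Of 22 other windows, thresholds and overlap rules, 20 gave counts within 1.5 times those reported, and of 4 settings chosen after the data were examined 2 did. With the gene body only, the NMDA list had 4 peaks where 200 kb either side gave 8. With −log10 p at or above the upper quartile, 3 NMDA peaks of the locus had a low fold and a high −log10 p where 6 were reported. Both changes follow from the narrower rule, which admits fewer peaks. With pileup and background rescaled to the genome level, 3 control and 2 NMDA values were above the lowest −log10 p of their list, a drop that the smaller numbers of fragments bring by construction. The 3 shared sites were found in both lists with an overlap of at least 50% of both peaks and with summits within 250 bp. Values without 1 replicate could not be had, as the libraries of a condition were merged. No paired analysis was possible because replicates were merged before the lists were made. Total depth is unknown, and the Poisson intervals cover the ChIP fragments at the summit alone.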
